A study of Mus musculus with 17 samples.

Results

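The genes described here encode lysosomal enzymes, cathepsins and membrane proteins. A list of 49 such genes was set against the arrays, and 48 of them had a probe set (the group of probes that reads 1 transcript) named with a single gene symbol, out of 22180 genes in all. Where a gene had more than 1 such probe set, the one with the highest mean was used. Glb1, the lysosomal beta-galactosidase, was read only by a probe set named with several genes and was not analysed here.

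Lysosomes are the acidic compartments in which cells break down proteins, glycans and lipids taken up from outside or delivered by autophagy. A vacuolar proton pump keeps them acidic, soluble hydrolases such as the cathepsins do the cutting, and membrane proteins protect the wall and export the products. Monocytes and macrophages are rich in lysosomes, and in antigen-presenting cells cathepsins also trim the invariant chain and antigens for loading on MHC class II.

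The study asked how Ly6C+ monocytes that appear in the spleen after loss of CD11c+ cells differ from other monocytes. RNA from sorted mouse cells was hybridised to 17 Affymetrix MoGene 2.0 arrays, and all values below are log2 levels unless said otherwise. In CD11c.DTR mice the CD11c (Itgax) promoter drives a diphtheria toxin receptor fused to EGFP, so diphtheria toxin (DT) removes dendritic cells but also other cells that use this promoter, some macrophages among them. The array titles carry the prefix JS or G32, which are taken here as 2 array series and shown apart, with 9 and 8 arrays.

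The groups were as follows. G-CSF-Ly6C+ monocytes (3 JS arrays) came from mice that the methods describe as wild-type C57BL/6 given G-CSF under the skin over several days. The array titles name Flt3L as well as G-CSF, and no array of mice given only the vehicle was analysed here. DT-Ly6C+ monocytes (3 JS arrays and 1 G32 array) and PBS-Ly6C+ monocytes (3 JS arrays and 1 G32 array) were taken from the spleens of CD11c.DTR mice 48 h after DT or PBS, so both carried the transgene. Ly6Cneg monocytes (3 G32 arrays, called 2, new and pool in the titles) are labelled as from spleens of PBS-injected mice, while the study describes C57BL/6 donors for them, so whether these mice carried the transgene is not settled. Common monocyte progenitors (cMoPs, 3 G32 arrays) were sorted from the bone marrow (BM) of untreated C57BL/6 mice, without the enzyme digestion used for the spleens. All mice are given as C57BL/6 of 8 to 12 weeks. The labels do not say which arrays come from separate mice, so p-values measure only the spread between these arrays, which may be technical in part.

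Array medians lay between 5.31 and 5.53, which the normalization of the deposited values makes alike, so they do not measure array quality. Replicates of a group correlated at 0.964 to 0.989. The PBS arrays of the 2 series did not resemble each other. The G32 PBS array correlated at 0.974 to 0.976 with the DT arrays of the JS series and at 0.918 to 0.923 with the PBS arrays of that series. For this reason each group was fitted separately in each series, and the DT and PBS comparison rests on the JS arrays, with the G32 pair given beside it. A list of 8 monocyte markers had mean levels of 11.77 to 11.86 in G-CSF, 11.80 to 11.85 in DT and 10.32 in PBS arrays of the JS series. In the G32 series it stood at 11.84 in the DT and 11.81 in the PBS array, and at 9.51 to 9.74 in cMoPs. The JS PBS arrays were thus the ones with lower monocyte markers. They also had higher stem and progenitor markers (9.81 to 9.92, against 6.10 in the G32 PBS array). The same held for neutrophil markers (11.06 to 11.12, against 7.62) and T cell markers (6.70 to 6.84, against 5.22). Rises over the JS PBS arrays are therefore rises over arrays with these markers. Whether any array departs from its label was not tested. In Ly6Cneg arrays 8 markers of Ly6Cneg monocytes averaged 10.25 to 10.65, against 6.93 to 7.03 in cMoPs. The same list averaged 10.32 to 10.49 in DT, 9.86 to 10.15 in G-CSF and 8.23 to 8.36 in PBS arrays of the JS series. In the G32 series it stood at 9.90 in the DT and 9.93 in the PBS array. The list thus sets Ly6Cneg arrays apart from cMoPs but not from the JS DT arrays.

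Many lysosome genes are known to carry the palindrome TCACGTGA, the core of the CLEAR element bound by TFEB, which is itself on the list. RefSeq promoter windows (GRCm38.p6, 250 bases before to 50 after the start site) were at hand for 42 of the 49 genes. The core was found in 6 of these 42 (14.3%), against 304 of 27025 genes (1.12%), and it contains the shorter E-box CACGTG, which was found in 14 of 42 (33.3%) against 2187 of 27025 (8.09%). Both motifs read the same on either strand. The following 5 stretches, each lying before the start site, are shown because they hold the core in genes whose levels are given below. Capitals mark TCACGTGA.
Ctsa: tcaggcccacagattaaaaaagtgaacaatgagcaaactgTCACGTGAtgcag
Ctsd: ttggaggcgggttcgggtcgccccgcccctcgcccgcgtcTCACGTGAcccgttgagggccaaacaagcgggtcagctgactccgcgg
Mcoln1: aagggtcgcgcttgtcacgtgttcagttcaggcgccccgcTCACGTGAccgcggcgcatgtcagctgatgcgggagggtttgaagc
Atp6v1a: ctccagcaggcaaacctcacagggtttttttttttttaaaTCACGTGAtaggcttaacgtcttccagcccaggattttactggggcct
Gla: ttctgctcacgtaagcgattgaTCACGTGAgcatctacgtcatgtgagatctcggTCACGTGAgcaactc
They lie at chr2:164833720-164833772 on the plus strand for Ctsa, chr7:142387879-142387966 on the minus strand for Ctsd, chr8:3500433-3500518 on the plus strand for Mcoln1, chr16:44139344-44139431 on the minus strand for Atp6v1a and chrX:134601186-134601255 on the minus strand for Gla. The core begins 13 bases before the start site in Ctsa, 46 in Mcoln1, 99 in Ctsd, 132 in Atp6v1a and 228 in Gla. A second copy follows in Gla and, after the start site and not shown, in Ctsa. In the sixth gene, Atp6v0d1, the core spans the start site and is not shown. Of these genes Ctsa, Gla and Mcoln1 rose in DT-Ly6C+ monocytes, Ctsd fell and Atp6v1a did not pass the test, as given below. The core was in 3 of 21 list genes that rose after DT (14.3%), 3 of 20 that did not (15.0%) and 8 of 60 other lysosome genes (13.3%).

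**Figure D1:**
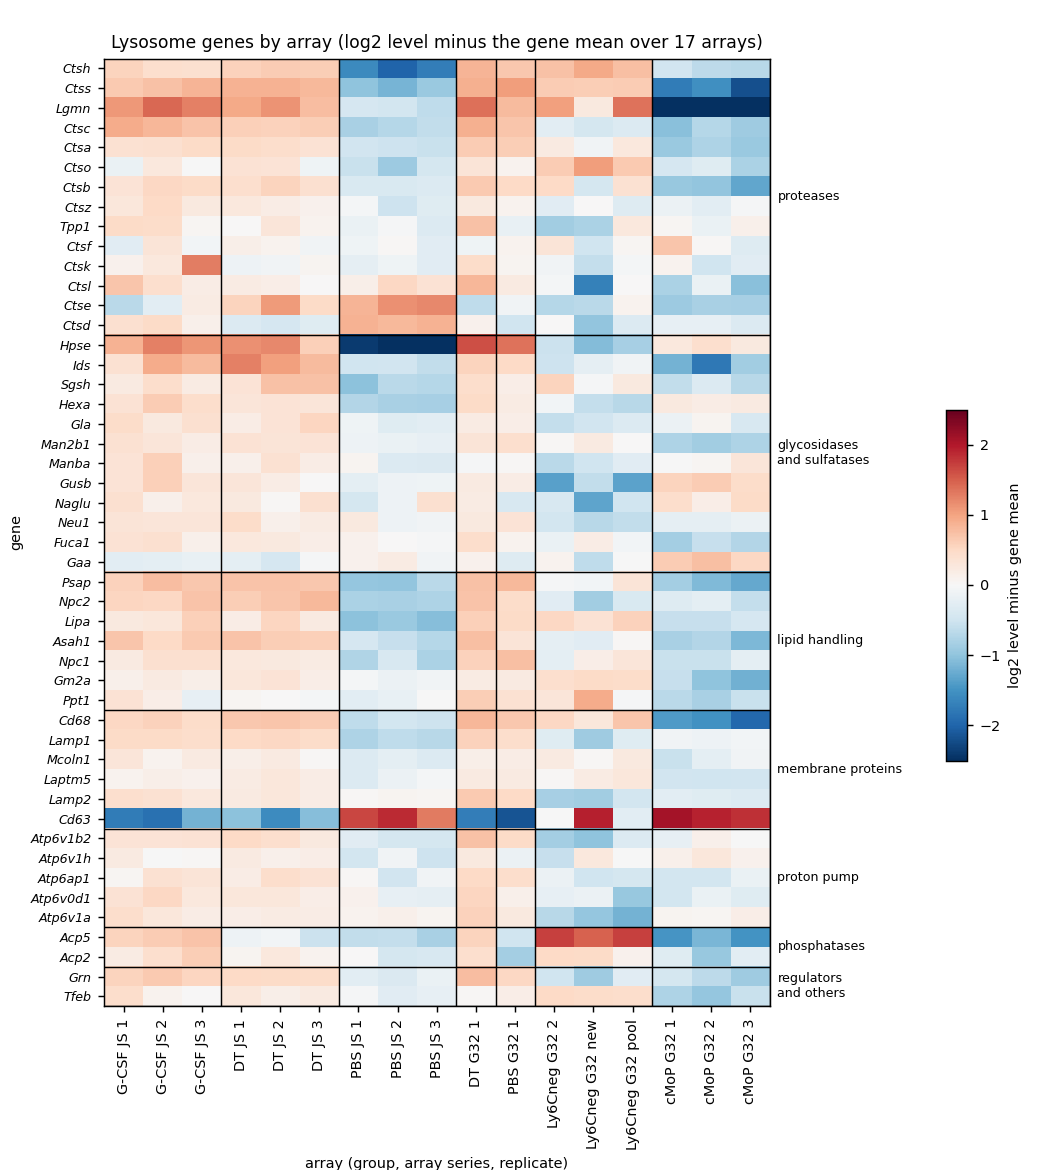
Levels of the 48 lysosome genes in the 17 arrays, as log2 level minus the mean of the gene over all arrays (colour, cut at 2.5 in either direction), with genes grouped by role and arrays by group and series. The 3 PBS arrays of the JS series are low in most proteases and lipid genes and high in Cd63 and Ctsd, whereas the G32 PBS array has the colours of the DT arrays in most genes.

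Lysosome genes were mostly higher in DT-Ly6C+ than in PBS-Ly6C+ monocytes of the JS series. Of 48 genes, 26 rose and 2 fell with an adjusted p under 0.05 (limma, Benjamini-Hochberg over 22180 genes), and 20 did not pass. Across all genes 9.46% rose and 10.0% fell. The median difference was 0.49 over the list and 0.02 over all genes. In 38 of the 48 genes every DT array lay above every PBS array, and in 2 every DT array lay below, against 18.5% and 16.9% of all genes.

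Markers of other cells moved with these genes. Of 10 stem and progenitor genes 9 fell in DT arrays, with a mean level of 5.97 to 6.12 in DT against 9.81 to 9.92 in PBS arrays of the JS series, and 9.76 to 9.90 in cMoPs. Of 9 neutrophil genes 5 fell (9.47 to 9.68 in DT, 11.06 to 11.12 in PBS), as did 5 of 8 T cell genes (5.03 to 5.17 in DT, 6.70 to 6.84 in PBS). Of 8 monocyte markers 6 rose, as did 6 of 8 markers of Ly6Cneg monocytes. Of 8 red pulp macrophage markers 1 rose and 2 fell (7.32 to 7.48 in DT, 8.12 to 8.52 in PBS). In bulk RNA of sorted cells, fewer cells of a type and less RNA per cell cannot be told apart, and the part of these cell types in the lysosome differences was not tested.

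Among 14 proteases 8 rose, 1 fell and 5 did not pass, and 6 of the 9 cysteine cathepsins were among those that rose. Cathepsin H (Ctsh), an aminopeptidase, had levels of 10.55, 10.42 and 10.40 in G-CSF, 10.57, 10.64 and 10.62 in DT and 8.41, 8.00 and 8.26 in PBS arrays. The PBS arrays were the low ones and overlapped with neither other group. The difference of DT from PBS was 2.39 (SE 0.13, adjusted p = 2.48e-09), or 5.23-fold. Cathepsin S (Ctss), which degrades the invariant chain, had 11.97, 12.05 and 12.18 in G-CSF, 12.18, 12.18 and 12.13 in DT and 10.31, 10.15 and 10.39 in PBS arrays. Again the 3 PBS arrays lay below all others, and DT exceeded PBS by 1.88 (SE 0.15, adjusted p = 1.69e-07). Legumain (Lgmn) is an endopeptidase that cuts after asparagine and activates cathepsins. It stood at 10.05, 10.40 and 10.24 in G-CSF, 9.91, 10.09 and 9.75 in DT and 8.55, 8.51 and 8.32 in PBS arrays. Its groups did not overlap with PBS, and the DT difference was 1.45 (SE 0.23, adjusted p = 0.000243). Cathepsin C (Ctsc, 1.32), the activator of granule serine proteases, and cathepsins A (Ctsa, 0.95), O (Ctso, 0.83), B (Ctsb, 0.82) and Z (Ctsz, 0.48) also rose.

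The aspartic protease cathepsin D (Ctsd) went the other way. It had 11.25, 11.32 and 10.97 in G-CSF, 10.51, 10.43 and 10.54 in DT and 11.73, 11.65 and 11.72 in PBS arrays, so that the DT arrays were lowest and the G-CSF arrays lay between. DT fell below PBS, with a difference of -1.21 (SE 0.19, adjusted p = 0.000185), or 2.31-fold lower. Cathepsin E (Ctse) differed by -0.36, cathepsin L (Ctsl) by -0.21, cathepsin K (Ctsk) by 0.15, cathepsin F (Ctsf) by 0.17 and the tripeptidyl peptidase Tpp1 by 0.32, none of which passed. Ctsk and Ctsf were dim, with levels of 4.50 to 5.82 in DT and PBS arrays, near the array medians.

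Of 12 glycosidases and sulfatases 6 rose and 6 did not pass. Heparanase (Hpse), which cuts heparan sulfate, had the largest rise of the list. Its levels were 10.33, 10.70 and 10.55 in G-CSF, 10.60, 10.65 and 10.05 in DT and 7.05, 6.78 and 6.90 in PBS arrays. The PBS arrays lay far below both other groups, and the DT difference was 3.52 (SE 0.18, adjusted p = 1.17e-09), or 11.5-fold. A second Hpse probe set gave 3.44. Iduronate 2-sulfatase (Ids), which acts on heparan and dermatan sulfate, had 8.38, 8.93 and 8.80 in G-CSF, 9.26, 9.03 and 8.78 in DT and 7.50, 7.51 and 7.38 in PBS arrays. The groups did not overlap with PBS, and the DT difference was 1.56 (SE 0.21, adjusted p = 5e-05). Sulfamidase (Sgsh, 1.41), the hexosaminidase alpha subunit (Hexa, 1.12), alpha-galactosidase (Gla, 0.59) and alpha-mannosidase (Man2b1, 0.51) rose too. Differences that did not pass ran between -0.31 for Gaa, the acid alpha-glucosidase, and 0.44 for Manba, the beta-mannosidase.

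Of 7 genes of lipid handling 5 rose. Prosaposin (Psap), the precursor of the saposins that present sphingolipids to their enzymes, had 12.50, 12.69 and 12.59 in G-CSF, 12.64, 12.63 and 12.59 in DT and 10.96, 10.93 and 11.24 in PBS arrays. The PBS arrays were the low ones throughout, and the DT difference was 1.58 (SE 0.15, adjusted p = 8.19e-07). Lysosomal acid lipase (Lipa), which frees cholesterol from its esters, stood at 9.91, 9.96 and 10.27 in G-CSF, 9.86, 10.21 and 9.90 in DT and 8.64, 8.74 and 8.60 in PBS arrays. DT exceeded PBS by 1.33 (SE 0.14, adjusted p = 2.63e-06), with no overlap. The cholesterol exporters Npc2 (1.50) and Npc1 (0.89) and acid ceramidase (Asah1, 1.21) rose, while the GM2 activator Gm2a (0.37) and the thioesterase Ppt1 (0.16) did not pass. A second, dimmer Npc1 probe set went the other way (5.27 in DT and 6.04 in PBS arrays), and the call for Npc1 was lost with the mean of both probe sets (0.06, adjusted p = 0.864).

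Of 6 membrane proteins 4 rose and 1 fell. Cd68, a heavily glycosylated macrophage protein, had 11.73, 11.80 and 11.68 in G-CSF, 11.90, 11.91 and 11.85 in DT and 10.58, 10.75 and 10.69 in PBS arrays. DT lay above PBS without overlap, by 1.21 (SE 0.15, adjusted p = 1.63e-05). The coat protein Lamp1 (1.19), the calcium channel Mcoln1 (0.45) and Laptm5 (0.41) rose as well, and Lamp2 (0.19) did not pass. The tetraspanin Cd63, found in late endosomes and in secretory granules, had the largest change downwards. It had 6.82, 6.69 and 7.37 in G-CSF, 7.54, 6.98 and 7.50 in DT and 10.22, 10.43 and 9.86 in PBS arrays. The PBS arrays were the high ones, and DT differed by -2.83 (SE 0.41, adjusted p = 7.81e-05), or 7.11-fold lower.

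Of 5 proton pump subunits 2 rose, and the median difference was 0.51. In this group Atp6v1b2 of the catalytic head (11.21, 11.20 and 11.22 in G-CSF, 11.37, 11.28 and 11.11 in DT and 10.58, 10.43 and 10.42 in PBS arrays) rose by 0.78 (SE 0.16, adjusted p = 0.00206), and the accessory subunit Atp6ap1 by 0.51. Atp6v1a, the ATP-binding subunit, had 9.42, 9.27 and 9.16 in G-CSF, 9.13, 9.18 and 9.17 in DT and 9.06, 9.10 and 9.04 in PBS arrays. Its DT arrays lay just above its PBS arrays, with a difference of 0.09 (SE 0.13, adjusted p = 0.719) that did not pass. Atp6v1h (0.53) and Atp6v0d1 (0.36) did not pass either. Neither phosphatase passed. Acp2, the lysosomal acid phosphatase, had 8.85, 9.08 and 9.27 in G-CSF, 8.71, 8.91 and 8.73 in DT and 8.66, 8.22 and 8.25 in PBS arrays, with a DT difference of 0.41 (SE 0.19, adjusted p = 0.176).

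Progranulin (Grn), a lysosomal protein needed for enzyme function, had 12.12, 12.22 and 12.10 in G-CSF, 12.06, 12.03 and 12.02 in DT and 11.29, 11.19 and 11.39 in PBS arrays. All DT arrays were above all PBS arrays, and the gene rose by 0.75 (SE 0.16, adjusted p = 0.0022). Tfeb, the transcription factor that drives lysosome genes, had 6.56, 6.23 and 6.15 in G-CSF, 6.42, 6.29 and 6.35 in DT and 6.11, 5.85 and 5.93 in PBS arrays. The DT arrays lay above the PBS arrays, but the difference of 0.39 (SE 0.14, adjusted p = 0.0707) did not pass.

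**Figure D2:**
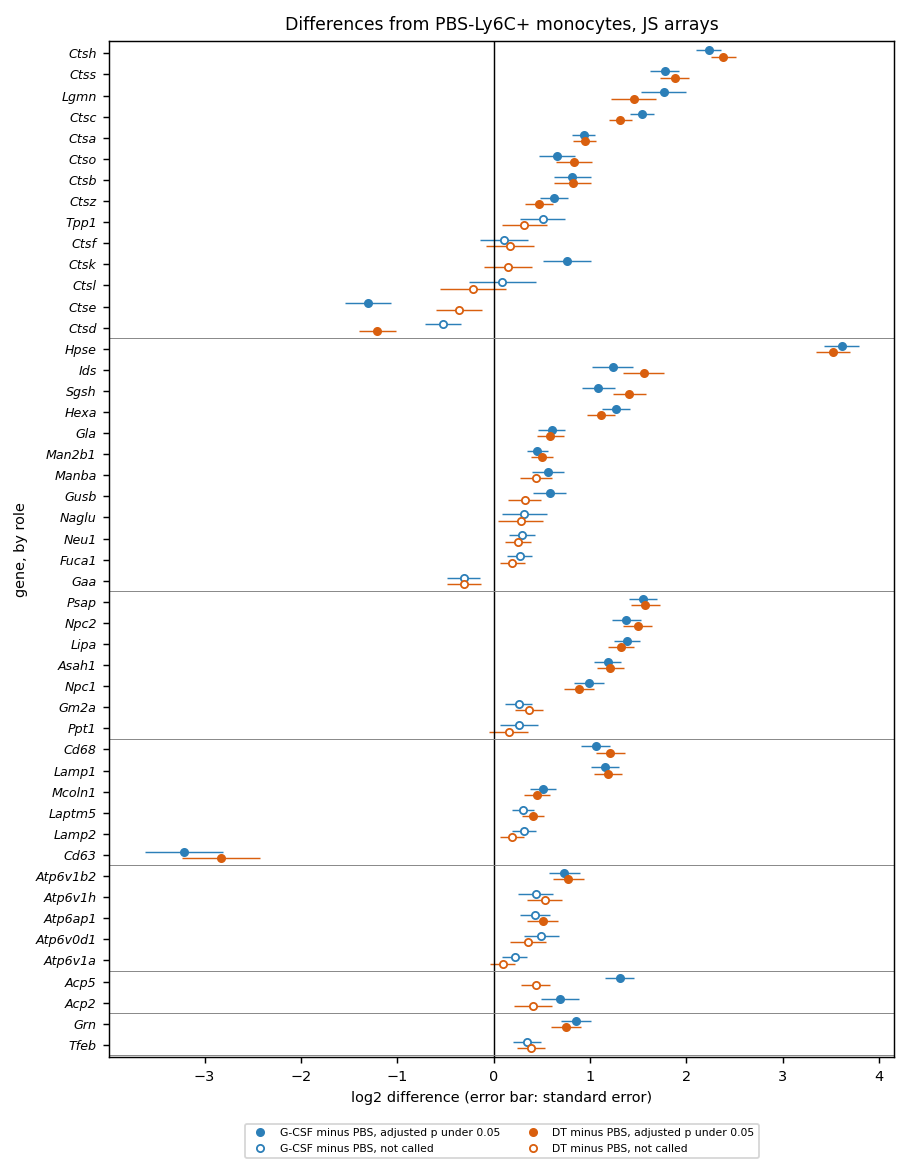
Log2 differences from PBS-Ly6C+ monocytes in the JS series for G-CSF-Ly6C+ (blue) and DT-Ly6C+ monocytes (orange), 3 arrays per group, with standard errors; filled points have an adjusted p under 0.05. Hpse leads the rises in both (3.61 and 3.52) and Cd63 the falls (-3.21 and -2.83), while Ctsd, Ctse and Acp5 lie apart between the colours.

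Calls near the threshold turned on single arrays. Atp6ap1 was lost without DT 2 (adjusted p = 0.119), DT 3 (0.0937), PBS 2 (0.174) or PBS 3 (0.0505), and Ctsz without DT 1 (0.101), DT 2 (0.072), PBS 2 (0.141) or PBS 3 (0.0743). Mcoln1 was lost without DT 1 (0.0764), DT 2 (0.102), PBS 1 (0.0811) or PBS 3 (0.0752), and Laptm5 without DT 2 (0.0742) or PBS 1 (0.099).

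Other lysosome genes, 78 measured of a second list of 86, showed 27 that rose and 7 that fell in DT arrays, with a median difference of 0.28. The largest rises were those of the serine carboxypeptidase Scpep1 (2.84), the amino acid sensor Slc38a9 (1.58) and gamma-glutamyl hydrolase Ggh (1.39). The largest falls were those of Laptm4b (-1.77), the proton pump subunit Atp6v0a1 (-1.58) and Ctsw (-1.28), a cathepsin of cytotoxic lymphocytes.

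The G32 pair of arrays did not show the JS differences at their size. With 1 DT and 1 PBS array, the median DT minus PBS difference over the list was 0.18, and DT was above PBS in 37 of 48 genes. The median size of the difference was 0.22 in the G32 pair and 0.52 in the JS arrays. Of the 26 genes that rose in the JS series, 21 had DT above PBS in the G32 pair. Hpse stood at 11.06 in the DT and 10.80 in the PBS array, Ctsh at 10.85 and 10.67, and Ctss at 12.22 and 12.37, in the same order. Cd63 was at 6.83 in the DT and 6.40 in the PBS array, and Ctsd at 10.95 in the DT and 10.34 in the PBS array. In both genes the PBS array was thus the lower one, unlike in the JS series. The G32 PBS array lay nearer to the mean of the JS DT arrays than to that of the JS PBS arrays in 42 of 48 genes, and in all 28 that passed the DT test. By an interaction term the DT effect differed between the series in 14 genes (12 higher and 2 lower in the JS series), against 8.3% of all genes. Its G32 side is 1 array against 1, whose spread was assumed to be that of the other groups, so these calls compare that pair of arrays and have no replicate check. Stem and progenitor markers averaged 6.11 in the DT array and 6.10 in the PBS array of the G32 series.

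**Figure D3:**
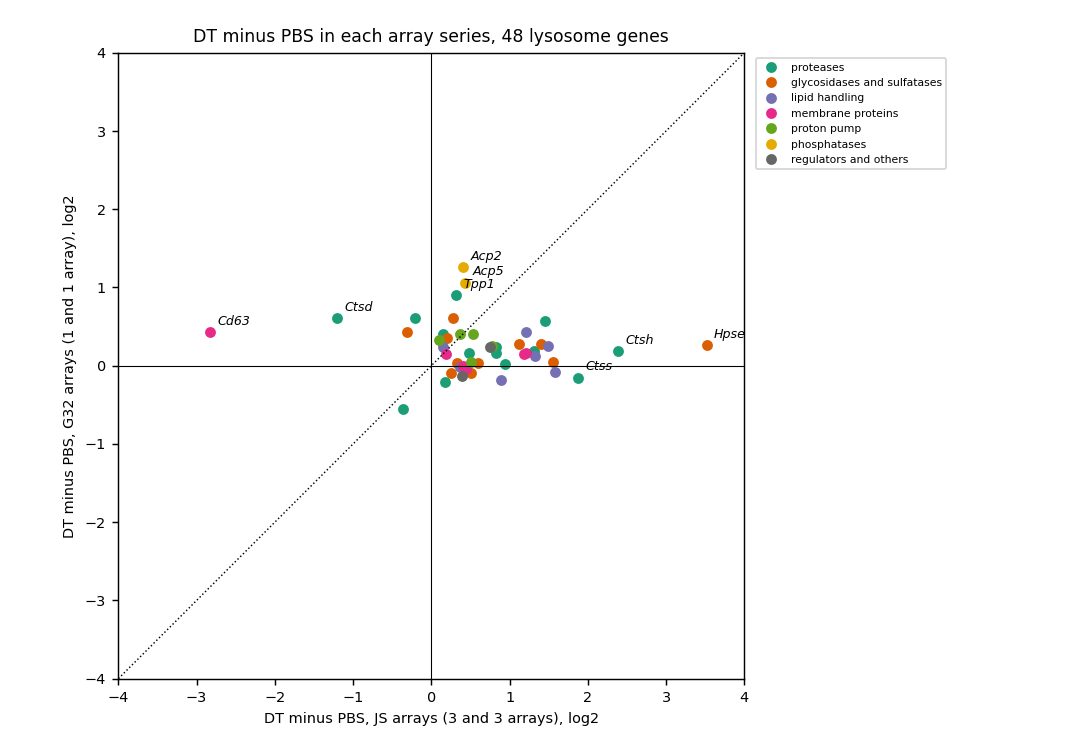
DT minus PBS difference of each of the 48 genes in the JS series (horizontal, 3 against 3 arrays) and in the G32 series (vertical, 1 against 1 array), in log2 units and coloured by role, with the dotted line marking equal values. Most points lie near 0 on the vertical axis, and Cd63 and Ctsd are negative in the JS series (-2.83 and -1.21) but positive in the G32 pair (0.43 and 0.61).

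G-CSF-Ly6C+ monocytes were set against the same PBS arrays. Here, and against the DT arrays below, genotype, agent and length of treatment differ together and cannot be told apart. The described sort differs with them, since the surface marker CD115 is named for the DT and PBS cells but not for the G-CSF cells. Of 48 genes, 29 rose, 2 fell and 17 did not pass, against 9.13% and 9.8% of all genes, and the median difference was 0.62 against 0.06 over all genes. By role, 9 of 14 proteases, 8 of 12 glycosidases and sulfatases, 5 of 7 lipid genes and 3 of 6 membrane proteins rose. So did 1 of 5 pump subunits, both phosphatases and Grn, while Tfeb did not pass. Among the lipid genes, the Npc1 call was again lost with the mean of both probe sets (0.08, adjusted p = 0.795). Because the PBS arrays serve both comparisons, the values are only given side by side. Hpse rose by 3.61 in G-CSF and 3.52 in DT arrays, Ctsh by 2.23 and 2.39, Ctss by 1.78 and 1.88, and Psap by 1.55 and 1.58. Lgmn rose by 1.76 in G-CSF and 1.45 in DT arrays, and Ids by 1.24 and 1.56. Cd63 fell, with a difference of -3.21 (SE 0.41, adjusted p = 2.34e-05).

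Several genes crossed the threshold in 1 of the 2 comparisons. The tartrate-resistant phosphatase Acp5, known from osteoclasts and macrophages, had 8.45, 8.53 and 8.61 in G-CSF, 7.78, 7.82 and 7.36 in DT and 7.28, 7.29 and 7.08 in PBS arrays. The 3 groups formed separate bands in that order, and G-CSF exceeded PBS by 1.31 (SE 0.15, adjusted p = 8.25e-06). Acp2 (0.69), the beta-glucuronidase Gusb (0.58), Manba (0.57) and Ctsk (0.76) also rose in G-CSF arrays. Ctse, an aspartic protease, had 6.57, 6.96 and 7.44 in G-CSF, 7.80, 8.30 and 7.72 in DT and 8.09, 8.38 and 8.43 in PBS arrays. The G-CSF arrays were the lowest, with a difference from PBS of -1.31 (SE 0.24, adjusted p = 0.000791). Ctsd did not pass in G-CSF arrays (-0.52 (SE 0.19, adjusted p = 0.0674)). The Ctsk value rested on G-CSF 3, at 6.07 against 4.91 and 5.06 in the others, and without it the difference was 0.39 (adjusted p = 0.206).

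Further calls turned on single arrays. Ctsk was also lost without PBS 1 (0.103), PBS 2 (0.0739) or PBS 3 (0.115), and Gusb without G-CSF 2 (adjusted p = 0.107), PBS 1 (0.0902), PBS 2 (0.0574) or PBS 3 (0.0545). Manba was lost without G-CSF 1 (0.052), G-CSF 2 (0.108), PBS 2 (0.0879) or PBS 3 (0.0908), Acp2 without G-CSF 2 (0.051), G-CSF 3 (0.0826), PBS 2 (0.0769) or PBS 3 (0.0696), Ctso without G-CSF 2 (0.0912) or PBS 2 (0.0999), and Mcoln1 without G-CSF 1 (0.0512). The marker lists of stem cells and progenitors (6.05 to 6.35) and neutrophils (8.87 to 8.92) were again below those of the PBS arrays, with 9 of 10 and 6 of 9 genes that fell. So were T cell genes, of which 5 of 8 fell (5.07 to 5.18 in G-CSF, 6.70 to 6.84 in PBS). Of 8 monocyte markers 6 rose, as did 6 of 8 markers of Ly6Cneg monocytes, and the part of these cell types was not tested. Of the 78 other lysosome genes 30 rose and 6 fell, led by Scpep1 (2.80) and Laptm4b (-1.80).

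Set directly against DT-Ly6C+ monocytes, G-CSF-Ly6C+ monocytes differed in 1 gene of 48. Acp5 was higher by 0.87 (SE 0.15, adjusted p = 0.0431), or 1.83-fold, and no gene was lower, against 0.0361% and 0.0271% of all genes. At an unadjusted p under 0.05, 4 of the 48 genes and 1662 of all genes passed. Next in size were Ctse (-0.95 (SE 0.24, adjusted p = 0.263)) and Ctsd (0.68 (SE 0.19, adjusted p = 0.326)). For 42 of the 48 genes the 95% interval of the difference lay within 1 log2 unit of 0, and the median half-width of the interval was 0.33. The Acp5 call was lost whenever 1 of the 6 arrays was left out (without G-CSF 1, 2 or 3, adjusted p = 0.105, 0.238 and 0.104, and without DT 1, 2 or 3, 0.152, 0.13 and 0.203), although its groups did not overlap. Red pulp macrophage markers averaged 8.02 to 8.50 in G-CSF and 7.32 to 7.48 in DT arrays, with a median difference of 0.79 and none of 8 past the test. Neutrophil markers averaged 8.87 to 8.92 in G-CSF and 9.47 to 9.68 in DT arrays, with a median difference of -0.71 and none of 9 past the test. Markers of Ly6Cneg monocytes averaged 9.86 to 10.15 in G-CSF and 10.32 to 10.49 in DT arrays. Their median difference was -0.23, and 1 of 8 was lower in G-CSF arrays. The part of these cells in the Acp5 difference was not tested. Differences of the 78 other lysosome genes ran between -0.31 and 0.40.

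**Figure D4:**
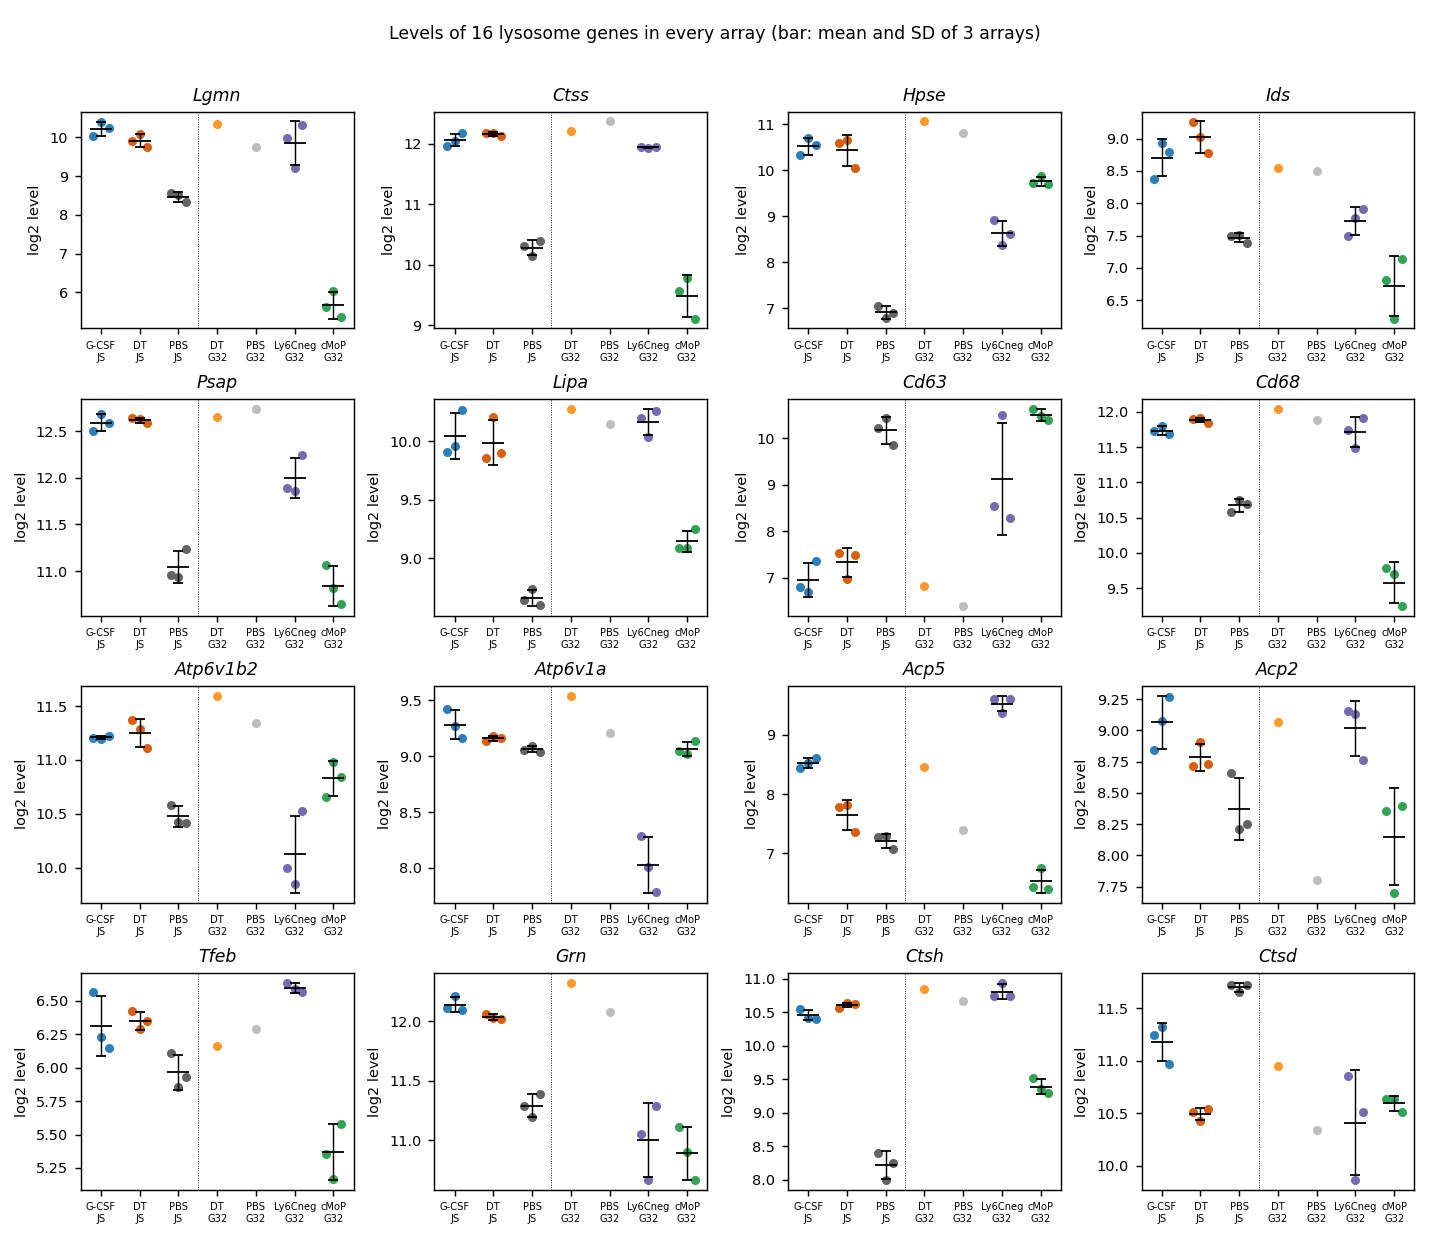
Log2 levels of 16 lysosome genes in every array (points), by group and series, with mean and SD where there are 3 arrays; vertical axes differ between panels and do not start at 0. Hpse, Ctsh, Ctss, Psap and Lipa are lower in the PBS arrays of the JS series than in the other spleen arrays, Lgmn and Tfeb are lowest in cMoPs, and Acp5 is highest in Ly6Cneg monocytes.

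Ly6Cneg monocytes and cMoPs were both in the G32 series. Of 48 genes, 23 rose and 12 fell in Ly6Cneg monocytes against cMoPs, and 13 did not pass, beside 13.5% and 19.4% of all genes. The median difference was 0.26 over the list and 0.07 over all genes. By role, which was not tested, 7 of 14 proteases rose and 7 did not pass, 6 of 7 lipid genes rose, and both phosphatases rose. Of 12 glycosidases and sulfatases 4 rose and 7 fell, of 6 membrane proteins 3 rose and 3 fell, and of 5 pump subunits 2 fell.

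Lgmn had the largest difference of the list. It stood at 9.99, 9.22 and 10.32 in Ly6Cneg and 5.61, 6.03 and 5.35 in cMoP arrays. The groups lay far apart, with a difference of 4.18 (SE 0.23, adjusted p = 1.25e-09), or 18.1-fold. Acp5 had 9.60, 9.37 and 9.60 in Ly6Cneg and 6.43, 6.75 and 6.41 in cMoP arrays, a difference of 2.999 (SE 0.15, adjusted p = 3.59e-10). Ctss was 11.95, 11.93 and 11.95 in Ly6Cneg and 9.57, 9.78 and 9.11 in cMoP arrays, with the Ly6Cneg arrays almost equal to each other and well above, by 2.45 (SE 0.15, adjusted p = 3.51e-09). Cd68 had 11.74, 11.49 and 11.91 in Ly6Cneg and 9.79, 9.69 and 9.25 in cMoP arrays, a rise of 2.14 (SE 0.15, adjusted p = 1.58e-08). Ctsh was at 10.73, 10.94 and 10.74 in Ly6Cneg and 9.52, 9.35 and 9.30 in cMoP arrays, again without overlap, by 1.41 (SE 0.13, adjusted p = 3.31e-07).

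The lipid genes Psap (11.89, 11.86 and 12.25 in Ly6Cneg and 11.07, 10.81 and 10.64 in cMoP arrays) and Lipa (10.20, 10.04 and 10.26 in Ly6Cneg and 9.09, 9.09 and 9.25 in cMoP arrays) rose by 1.16 and 1.02. Gm2a (1.39) and Ppt1 (1.08) rose with them, and Npc2 (-0.12) did not pass. Ids had 7.49, 7.77 and 7.91 in Ly6Cneg and 6.82, 6.22 and 7.13 in cMoP arrays, higher by 1.001 (SE 0.21, adjusted p = 0.00154). Acp2 had 9.15, 9.13 and 8.77 in Ly6Cneg and 8.35, 7.70 and 8.39 in cMoP arrays and rose by 0.87 (SE 0.19, adjusted p = 0.00219). Tfeb stood at 6.63, 6.59 and 6.56 in Ly6Cneg and 5.36, 5.17 and 5.58 in cMoP arrays. It was low in the progenitors, near the array medians, and differed by 1.23 (SE 0.14, adjusted p = 4.15e-06).

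Genes lower in Ly6Cneg monocytes than in cMoPs included Gusb (-1.65 (SE 0.17, adjusted p = 1.55e-06)), the heparan sulfate enzyme Naglu (-1.11), Gaa (-0.82), Hexa (-0.67), Manba (-0.59) and the sialidase Neu1 (-0.40). Hpse had 8.91, 8.37 and 8.61 in Ly6Cneg and 9.71, 9.88 and 9.70 in cMoP arrays. The Ly6Cneg arrays were the lower ones without overlap, with a difference of -1.13 (SE 0.18, adjusted p = 9.85e-05). The pump subunit Atp6v1a had 8.29, 8.00 and 7.79 in Ly6Cneg and 9.05, 9.02 and 9.14 in cMoP arrays, a difference of -1.04 (SE 0.13, adjusted p = 1.14e-05). Atp6v1b2 had 10.00, 9.85 and 10.53 in Ly6Cneg and 10.66, 10.98 and 10.84 in cMoP arrays, lower without overlap, with a difference of -0.70 (SE 0.16, adjusted p = 0.00259). Lamp1 (-0.40) and Lamp2 (-0.41) were also lower.

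Cd63, at 8.55, 10.50 and 8.30 in Ly6Cneg and 10.64, 10.49 and 10.39 in cMoP arrays, overlapped through the Ly6Cneg array called new. Its difference was -1.39 (SE 0.41, adjusted p = 0.0142). Grn (11.05, 10.66 and 11.28 in Ly6Cneg and 11.11, 10.90 and 10.66 in cMoP arrays) and Ctsd (10.85, 9.86 and 10.52 in Ly6Cneg and 10.64, 10.64 and 10.51 in cMoP arrays) overlapped and did not pass. The array called new also had the lowest Ctsl (8.20, 6.56 and 8.27 in the Ly6Cneg arrays), and Ly6Cneg replicates had a median SD of 0.24 over the list, against 0.16 in cMoPs.

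Several calls of this comparison turned on single arrays. Cd63 was lost without Ly6Cneg 2 (adjusted p = 0.0712) or pool (0.0798), and Lamp1 without Ly6Cneg new (0.216) or cMoP 1 (0.0928), 2 (0.0759) or 3 (0.0998). Lamp2 was lost without Ly6Cneg 2 (0.0684), new (0.0754) or cMoP 1 (0.0577), and Neu1 without Ly6Cneg new (0.1), pool (0.0713) or cMoP 1 (0.0636), 2 (0.0646) or 3 (0.0905). Npc1 was lost without Ly6Cneg pool (0.0744) or cMoP 1 (0.0612) or 2 (0.0586), Manba without cMoP 3 (0.0565) and Mcoln1 without cMoP 1 (0.0906). All 8 red pulp macrophage markers were higher in the Ly6Cneg arrays (mean level 7.22 to 9.80, against 5.62 to 5.70 in cMoPs), as were 5 of 7 B cell genes (5.70 to 7.38 in Ly6Cneg arrays, 4.998 to 5.19 in cMoPs). Of 7 dendritic cell genes 5 were higher (8.13 to 8.99 in Ly6Cneg arrays, 5.44 to 5.65 in cMoPs), as were 4 of 6 NK cell genes (6.12 to 8.24 in Ly6Cneg arrays, 4.71 to 4.78 in cMoPs) and 4 of 8 T cell genes (5.68 to 6.46 in Ly6Cneg arrays, 4.71 to 4.81 in cMoPs). Of 9 neutrophil genes 4 were higher and 1 was lower, and of 10 stem and progenitor genes 6 were lower and 1 was higher (6.28 to 6.80 in Ly6Cneg arrays, 9.76 to 9.90 in cMoPs). The part of these cells in the lysosome differences was not tested. Tissue, injection and digestion, and possibly genotype, differ together with the cell type here and cannot be told apart from it. Of 78 other lysosome genes 20 rose and 20 fell, led by the peptide transporter Slc15a3 (4.19) and by Tfec (-4.80), a relative of Tfeb.

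The single DT array of the G32 series was also set against both groups, with its spread assumed to be like that of the other groups. It has no replicate in that series, so the p-values below rest on this assumption and compare that array with the group. Against cMoPs, tissue, genotype, injection and digestion differ together with the cell type and cannot be told apart from it. Against Ly6Cneg monocytes the injection differs together with the cell type. The genotype may differ too, since whether the Ly6Cneg mice carried the transgene is not settled. Against cMoPs 31 of 48 genes rose, 1 fell and 16 did not pass, beside 8.07% and 9.04% of all genes, with a median difference of 0.88 against 0.05 over all genes. By role, the median difference was 1.13 over the 7 lipid genes, 1.14 over the 14 proteases and 0.40 over the 12 glycosidases and sulfatases. It was 0.69 over the 6 membrane proteins, 0.77 over the 5 pump subunits and 1.42 over the 2 phosphatases. Tfeb differed by 0.80. Lgmn had 10.34 in the DT array against 5.61, 6.03 and 5.35 in cMoPs, a difference of 4.67 (SE 0.33, adjusted p = 5.26e-08). Ctss differed by 2.73, Cd68 by 2.47, Acp5 by 1.92, Ids by 1.82 and Psap by 1.82. Grn, at 12.33 in the DT array, lay above all cMoP arrays and differed by 1.44 (SE 0.22, adjusted p = 0.00016). Cd63 fell, at 6.83 in the DT array against 10.64, 10.49 and 10.39 in cMoPs (-3.68 (SE 0.57, adjusted p = 0.000189)). The G32 PBS array had 6.40. With the spread taken from the G32 arrays alone, 25 genes rose and 1 fell.

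**Figure D5:**
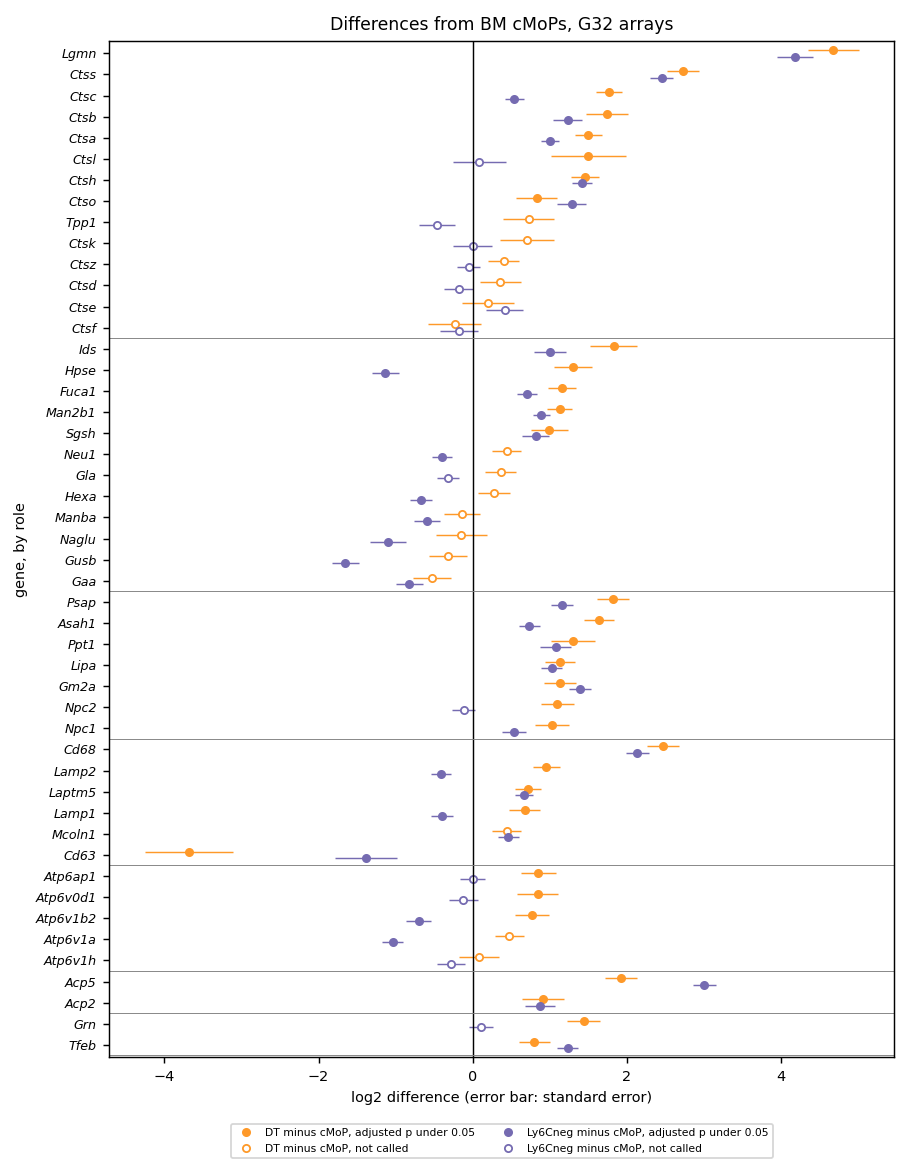
Log2 differences from BM cMoPs in the G32 series for DT-Ly6C+ monocytes (orange, 1 against 3 arrays) and Ly6Cneg monocytes (purple, 3 against 3 arrays), with standard errors; filled points have an adjusted p under 0.05. Lgmn is far to the right in both (4.67 and 4.18), and Hpse, Lamp1, Lamp2 and Atp6v1b2 are among the genes that lie on opposite sides of 0.

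Markers of other cells differed too. Of 10 stem and progenitor genes 7 were lower in the DT array (mean level 6.11, against 9.76 to 9.90 in cMoPs). Of 9 neutrophil genes 5 were higher (7.90 in the DT array, 6.10 to 6.56 in cMoPs), as were 4 of 8 red pulp macrophage markers (7.61 in the DT array, 5.62 to 5.70 in cMoPs) and 2 of 7 dendritic cell genes (6.56 in the DT array, 5.44 to 5.65 in cMoPs). Monocyte markers averaged 11.84 in the DT array and 9.51 to 9.74 in cMoPs. Markers of Ly6Cneg monocytes averaged 9.90 in the DT array and 6.93 to 7.03 in cMoPs. T cell genes averaged 5.23 in the DT array and 4.71 to 4.81 in cMoPs. The part of these cells was not tested.

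In this comparison 6 calls turned on a single cMoP array. They were those of Ctsl (without cMoP 1, adjusted p = 0.0927, or 3, 0.118), Ctso (1, 0.0571, or 3, 0.119), Atp6v0d1 (1, 0.0901, or 3, 0.0664), Lamp1 (1, 0.0516, or 2, 0.061), Atp6v1b2 (1, 0.0742) and Acp2 (2, 0.0752). Of 78 other lysosome genes 21 rose and 5 fell, led by Slc15a3 (4.72) and by Tfec (-1.86).

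Against Ly6Cneg monocytes the DT array was higher in 15 of 48 genes and lower in 2, and 31 did not pass, beside 5.83% and 2.07% of all genes. The median difference was 0.50, against 0.00 over all genes. The proton pump had 4 of its 5 subunits higher. Atp6v1a was at 9.54 in the DT array against 8.29, 8.00 and 7.79 in Ly6Cneg arrays, a difference of 1.52 (SE 0.19, adjusted p = 0.00011). Atp6v1b2 was at 11.60 in the DT array against 10.00, 9.85 and 10.53 in Ly6Cneg arrays, a difference of 1.47 (SE 0.23, adjusted p = 0.000667). Both DT values lay above all Ly6Cneg arrays, and Atp6v0d1 (0.96) and Atp6ap1 (0.85) were higher as well. With quantile normalization the differences of Atp6v0d1 and Atp6ap1 were 0.70 and 0.56 and did not pass. They did not pass with only the G32 arrays either.

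Hpse had 11.06 in the DT array against 8.91, 8.37 and 8.61 in Ly6Cneg arrays, the largest rise of this comparison (2.43 (SE 0.25, adjusted p = 2.22e-05)). Lamp2 (1.37), Gusb (1.33), Grn (1.32), Ctsc (1.23), Npc2 (1.22), Tpp1 (1.19), Lamp1 (1.08), Hexa (0.94), Asah1 (0.90) and Neu1 (0.84) were higher too. Of these, Gusb, Grn, Npc2, Tpp1, Lamp1, Hexa and Asah1 did not pass with only the G32 arrays. With quantile normalization Tpp1, Hexa, Asah1 and Neu1 did not pass. Acp5 was lower, at 8.45 in the DT array against 9.60, 9.37 and 9.60 in Ly6Cneg arrays (-1.07, SE 0.21), and so was Cd63 (-2.29, SE 0.57). The Cd63 difference did not pass with only the G32 arrays. Ctsh (0.05 (SE 0.18, adjusted p = 0.958)), Ctss (0.28 (SE 0.21, adjusted p = 0.611)) and Lipa (0.11 (SE 0.19, adjusted p = 0.882)) did not pass. Tfeb was at 6.16 in the DT array and did not pass either (-0.43 (SE 0.20, adjusted p = 0.261)).

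Of 8 monocyte markers 7 were higher in the DT array (mean level 11.84, against 8.28 to 9.20 in Ly6Cneg arrays), and 3 of 8 markers of Ly6Cneg monocytes were lower. Of 7 dendritic cell genes 4 were lower (6.56 in the DT array, 8.13 to 8.99 in Ly6Cneg arrays), as were 2 of 7 B cell genes (5.003 in the DT array, 5.70 to 7.38 in Ly6Cneg arrays), 1 of 6 NK cell genes (4.998 in the DT array, 6.12 to 8.24 in Ly6Cneg arrays) and 1 of 8 T cell genes. Of 9 neutrophil genes 3 were higher, and the part of these cells was not tested.

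The count of genes higher in the DT array depended on the fit, with 6 when only the G32 arrays gave the spread and 9 after quantile normalization. Atp6ap1 was lost without Ly6Cneg new (adjusted p = 0.0571) or pool (0.0538), and Tpp1 without Ly6Cneg 2 (0.084) or new (0.08). Of 78 other lysosome genes 17 were higher in the DT array, led by Tfec (2.94), the acetyltransferase Hgsnat (2.03) and the sulfatase Galns (1.85).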

How the data were processed

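RNA of sorted mouse monocytes and progenitors was measured on 17 arrays. The authors deposited log2 values made with RMA in the oligo package, whose version is not given in the sources used here, and these values were used as deposited; their later ComBat step with arrays of other studies is not in them. RMA removes background and makes the distributions of the arrays alike, so dim genes are compressed towards a floor and a shift shared by most genes cannot be seen. No background probe values were used, and the number of arrays limits the precision.

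Of 41345 probe sets, 23521 had 1 gene symbol in the platform annotation, 1820 several and 16004 none. The probe set with the highest mean was kept for each of 22180 genes, of which 21994 matched the RefSeq gene table by identifier. limma 3.58.1 in R 4.3.3 fitted 1 mean per group and array series to all arrays (10 residual degrees of freedom), with empirical Bayes and Benjamini-Hochberg adjustment over all genes at a threshold of 0.05. A model with an additive term for the series was an alternative only, since the PBS array of the G32 series resembled DT arrays. Genes with a mean below the percentile 30 were left out in another alternative. Others were quantile normalization, median centring, trended and robust empirical Bayes, array weights, averaged probe sets, the arrays of 1 series only, a replicate block and each array left out in turn. The script was tested on simulated data.

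The genes, role groups and the second list of lysosome genes were chosen with earlier results of these data known. Values in every array are given for the 2 genes per role with the largest summed differences of DT from PBS and of Ly6Cneg monocytes from cMoPs, and for the 5 largest rises and falls that passed in DT against PBS; Ctse was added after its values were seen. Replicate numbers were taken from the array titles. Deviations of same-numbered JS arrays from their group means correlated at 0.00 to 0.09 over 9 pairs, so the numbers were not used to pair arrays. Promoter windows came from RefSeq (GRCm38.p6). Python 3.11.15 (pandas 2.3.3, numpy 2.4.6, matplotlib 3.10.9) was used for summaries and figures.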

Additional observations from a re-analysis of the deposited data

Results flagged for a closer look

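The DT effect of 14 genes differed between the array series by the interaction term of the fit (limma, adjusted p under 0.05), with 3 DT and 3 PBS arrays in the JS series and 1 of each in the G32 series. The difference (JS effect minus G32 effect, log2) was 3.26 for Hpse (3.52 in JS and 0.26 in G32 arrays), 2.20 for Ctsh (2.39 and 0.18), 2.03 for Ctss (1.88 and -0.15), 1.66 for Psap (1.58 and -0.09) and 1.51 for Ids (1.56 and 0.05). It was 1.24 for Npc2, 1.20 for Lipa, 1.13 for Ctsc, 1.05 for Cd68, 1.04 for Lamp1 and 0.93 for Ctsa. Each of these had the larger rise in the JS series. For Npc1 it was 1.07 (0.89 in JS and -0.18 in G32 arrays). It was -1.81 for Ctsd (-1.21 in JS and 0.61 in G32 arrays) and -3.26 for Cd63 (-2.83 and 0.43). The sign of the DT effect turned in Ctsd, Cd63, Ctss, Psap and Npc1. The Npc1 value rests on 1 of 2 probe sets that disagree. The G32 side has no replicate, and the spread of its arrays was taken from the other groups.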

How the results depend on the processing

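No difference that passed changed its sign under any alternative run. Of the 12 counts of genes that rose or fell in the 6 comparisons, those that moved by over 1.5 times were few. With an additive series term over all arrays, DT against PBS kept 1 fall in place of 2 (Ctsd, adjusted p = 0.0669, was lost), and DT against cMoPs had 2 in place of 1. The single gene higher in G-CSF than in DT arrays (Acp5) was lost, leaving 0, with the additive term, median centring, only the JS arrays and the replicate block (adjusted p = 0.0788 to 0.309 over the settings that lost it). For DT against Ly6Cneg monocytes, quantile normalization gave 9 genes higher, and only the G32 arrays gave 6 higher and 1 lower, in place of 15 and 2. Steady counts can hide a change of genes. The additive term lost 6 calls of DT against PBS (Atp6ap1, Ctsd, Ctsz, Laptm5, Man2b1 and Mcoln1), while Acp2, Acp5 and Atp6v1h passed. In Ly6Cneg monocytes against cMoPs it lost Cd63, Hpse, Lamp1 and Npc1. Quantile normalization lost Lamp1, Lamp2, Manba and Neu1 in that comparison. The causes were not tested.

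With each array left out in turn, DT against PBS gave 22 to 26 rises and 2 falls, G-CSF against PBS 24 to 28 and 2, and G-CSF against DT 0 and 0. Ly6Cneg against cMoPs gave 21 to 24 rises and 9 to 11 falls, DT against cMoPs 26 to 29 and 1, and DT against Ly6Cneg 13 to 17 and 2. The replicate block gave 25 rises and 2 falls for DT against PBS and 31 and 3 for G-CSF against PBS. Across all genes the additive term called 2770 genes in DT against PBS, in place of 4319.

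The comparisons of the DT array in the G32 series rest on 1 array, and dim genes such as Ctsk lie near the floor of the arrays. No group of one series was tested against a group of the other, and levels set side by side across the series are descriptions.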
